A study of Mus musculus with 6 samples.

Results

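Fn1, Postn, Tnc, Spp1, Sparc, Lox, Loxl2, Thbs1, Dcn and Lum encode secreted proteins that fibroblasts and myofibroblasts lay down in scar tissue, together with enzymes that cross-link it. The 10 genes were listed by name as fibrosis matricellular proteins and matrix cross-linkers, with no limit on a measured value. All 10 were found by gene ID in the table of 56884 genes, and all 10 were among the 18177 genes that passed the filter on low counts. The lowest count of any of them in any lesion was 1111 reads (Tnc in KO replicate 2), so the filter left none of them out.

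A healing or fibrotic tissue first receives a provisional matrix rich in fibronectin, which cells grip through integrins. Matricellular proteins such as periostin, tenascin C, osteopontin, SPARC and thrombospondin 1 are then added, which adjust how cells attach and how growth factors such as TGF-beta act rather than bearing load themselves. Lysyl oxidases oxidise lysines of collagen and elastin so that fibres become covalently cross-linked and stiff, and small leucine-rich proteoglycans such as decorin and lumican coat collagen fibrils and limit their thickness. Fibrosis around ectopic endometrial tissue is a known feature of endometriosis.

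The data were bulk RNA-seq read counts from 6 mouse ectopic lesions, 3 control (WT) and 3 Dnmt3a knockout (KO), made to ask which transcripts differ when the grafted uterine tissue lacks Dnmt3a, a de novo DNA methyltransferase. WT donors were Dnmt3a f/f females without Cre, and KO donors were Dnmt3a f/f:PR Cre/+ females, in which Cre is driven in cells that express the progesterone receptor. The PR Cre allele was therefore present in the KO donors alone, and its effect and that of the Dnmt3a deletion cannot be told apart. Donors and recipients were 8 weeks old, the donors had received estradiol, and all recipients were syngeneic C57BL/6J wild-type females with an estradiol pellet. The labels describe uterine fragments injected into the peritoneal cavity and a time of 4 weeks, whereas the study's methods describe a fragment sutured to the mesenteric membrane and collection at day 21, and both groups shared whichever was used. Recipient cells that enter a lesion keep Dnmt3a, and each library was 1 lesion, with nothing in the labels to say more of the lesion's size or makeup. In bulk tissue, fewer cells of a type and less RNA per cell cannot be told apart.

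Total counts ranged from 45370342 to 57239184 reads per lesion. Dnmt3a itself read 52.7, 43.9 and 51.7 CPM (read counts scaled to a common library size) in the WT lesions, always given in the order of replicates 1, 2 and 3, against 30.4, 33.5 and 36.2 CPM in the KO lesions, so the groups did not overlap. Its log2 fold change, KO against WT, was -0.57 (SE 0.14, edgeR adjusted p = 0.321), short of the study's fold limit. DESeq2 gave -0.58 with an adjusted p of 0.00685, limma voom an adjusted p of 0.0650, and the exact two-sided permutation test gave p = 0.1, the smallest that 3 against 3 allows. These values are RNA of the whole lesion. By antibody staining, the study reported Dnmt3a protein as absent from epithelium and stroma of KO lesions and present in control lesions. Summed over 5 skeletal muscle markers, WT replicates 1 and 3 held 21960 and 24760 CPM where the other 4 lesions held 2.23 to 13.2 CPM, and WT replicate 2 held 9464 CPM of 5 neutrophil markers where the others held 10.9 to 456 CPM. WT replicate 3 also held 3260 CPM of 5 pancreatic acinar markers, where the others held 6.99 to 16.0 CPM. Pgr, the progesterone receptor that marks the grafted uterine tissue and drives the Cre, was read in all 6 lesions at 135 to 255 CPM, and Foxa2, a gland marker, was at 0 in KO replicate 3 and at most 2.62 CPM elsewhere.

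The sequences upstream of 4 of the genes, Postn, Tnc, Spp1 and Sparc, are shown first. RefSeq promoter windows were at hand for these 4 alone. CpG is the dinucleotide that Dnmt3a methylates, and whether methylation bears on the levels of these genes was not tested. Each run is the 250 bases before the annotated start in GRCm38.p6, written 5′ to 3′ on the gene's own strand, with every CpG in capitals. They lie at chr3:54360857-54361106 (plus strand), chr4:64047016-64047265 (minus), chr5:104434861-104435110 (plus) and chr11:55420081-55420330 (minus).
Postn: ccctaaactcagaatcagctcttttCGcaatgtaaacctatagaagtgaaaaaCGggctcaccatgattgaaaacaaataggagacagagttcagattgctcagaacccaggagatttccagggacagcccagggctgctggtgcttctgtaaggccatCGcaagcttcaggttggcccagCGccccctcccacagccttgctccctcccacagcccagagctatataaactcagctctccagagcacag
Tnc: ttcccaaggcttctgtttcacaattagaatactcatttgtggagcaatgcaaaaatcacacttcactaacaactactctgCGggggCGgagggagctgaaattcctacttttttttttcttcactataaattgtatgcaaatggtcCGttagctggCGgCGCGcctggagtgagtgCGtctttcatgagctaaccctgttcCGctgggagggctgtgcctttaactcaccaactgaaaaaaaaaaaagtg
Spp1: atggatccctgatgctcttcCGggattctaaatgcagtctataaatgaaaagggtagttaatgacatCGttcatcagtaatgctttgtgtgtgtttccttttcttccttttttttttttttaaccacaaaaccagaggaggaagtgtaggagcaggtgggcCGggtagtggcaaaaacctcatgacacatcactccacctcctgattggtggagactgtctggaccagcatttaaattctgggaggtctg
Sparc: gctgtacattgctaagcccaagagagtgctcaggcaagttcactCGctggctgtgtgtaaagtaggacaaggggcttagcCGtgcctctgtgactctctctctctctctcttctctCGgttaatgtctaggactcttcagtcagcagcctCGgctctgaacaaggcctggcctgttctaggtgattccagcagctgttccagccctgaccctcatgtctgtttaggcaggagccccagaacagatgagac
The Tnc window held 8 CpG, the Postn and Sparc windows 4 each and the Spp1 window 3, where the median of 32851 RefSeq windows of the same length was 6. Tnc thus lay above that median and the others below it. The counts stood at the 59.7th, 44.4th, 44.4th and 37.8th percentiles for Tnc, Postn, Sparc and Spp1. Postn, Tnc and Spp1 each had 2 windows at hand, and the other window of each is not shown. The letters TATAAA, searched on both strands, were found in the Postn, Tnc and Spp1 windows and not in that of Sparc, and in 12.4% of all windows. CCAAT was found only in the Spp1 window of the 4 (33.9% of all windows), and TGANTCA, the letters of an AP-1 site, in none of the 4 (6.75% of all windows). No methylation was measured in these lesions. The Sparc window begins at a RefSeq start 3103 bases inside the GENCODE gene, so it need not be the start used here.

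With all 6 lesions, 0 of the 10 genes passed the study's limits of an unadjusted p under 0.05 and a log2 fold change beyond 1 in either direction, by edgeR's quasi-likelihood test. Over all genes tested, 5.85% passed as lower in KO lesions and 3.1% as higher. Of the 10, 0 had an unadjusted p under 0.05, where 14.7% of all genes did, and 0 had an adjusted p under 0.05, where 0.0055% of all genes (1 gene) did. DESeq2's Wald test called 1 of the 10 lower (Thbs1) where it called 7.43% of all genes, and limma voom with sample quality weights called 3 lower (Postn, Spp1 and Thbs1) where it called 8.38% and gave 8 of the 10 an unadjusted p under 0.05 where 30.1% of all genes had one. Of the 10 log2 fold changes, 9 were below 0, as were 48.6% of those of all genes, and their median was -0.44 beside 0.01 over all genes tested.

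The 3 KO lesions were not alike in these genes. In all 10 genes, KO replicates 1 and 2 lay below every WT lesion and KO replicate 3 did not, an arrangement that 13.7% of all genes tested had; 22.4% had those 2 lesions below every WT lesion wherever the other KO lesion lay. None of the 10 had every KO lesion below or above every WT lesion, as 8.74% and 10.7% of all genes did. KO replicate 3 lay above every WT lesion for Postn, Tnc, Sparc, Lox, Loxl2, Dcn and Lum (7 of 10, against 3.86% of all genes with this stricter arrangement), and inside the WT range for Fn1, Spp1 and Thbs1. Summed over the 10 genes, the WT lesions came to 9663, 12950 and 8895 CPM and the KO lesions to 4467, 3656 and 12270 CPM. As a share of all reads these sums were 0.842% to 1.27% in WT lesions, 0.445% and 0.384% in KO replicates 1 and 2, and 1.28% in KO replicate 3. On the log2 scale, the 10 genes differed from the WT mean by a median of -0.97, -1.33 and 0.42 in the 3 KO lesions, while the median over all genes lay between -0.01 and 0.02 in every lesion.

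**Figure D1:**
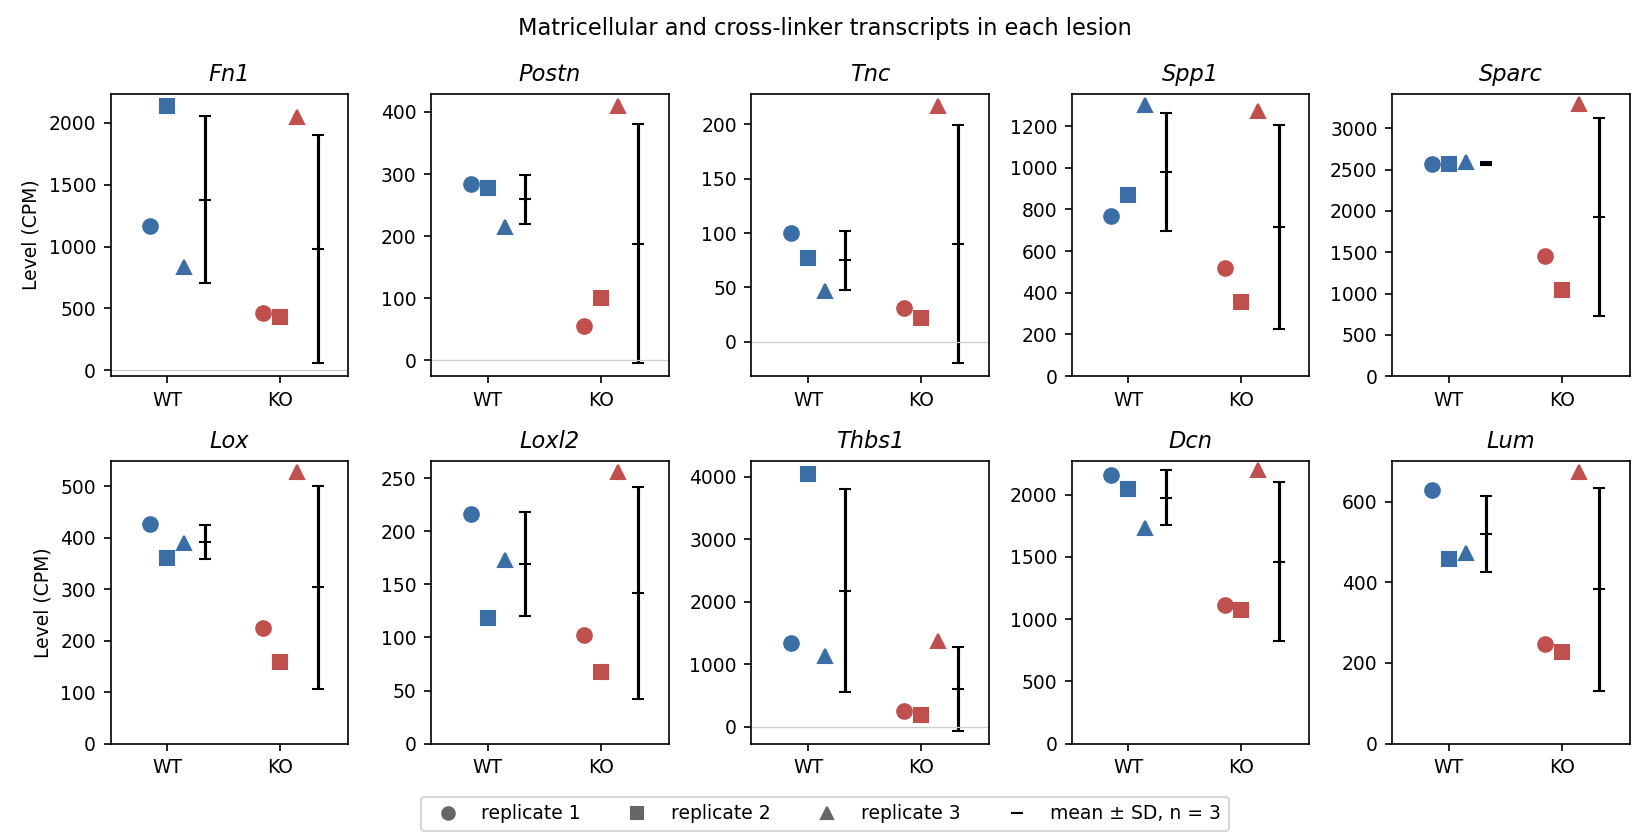
Level of each of the 10 genes (CPM, linear axis) in the 3 WT (blue) and 3 KO (red) lesions, with the replicate given by the marker shape and the black bar giving mean ± SD, n = 3. In every panel KO replicates 1 and 2 lie below the WT lesions and KO replicate 3 does not; Thbs1 and Fn1 are highest in WT replicate 2.

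Fibronectin (Fn1, chromosome 1:71585520-71653200, minus strand; here and below GRCm38 with GENCODE M21) is the main protein of the provisional matrix. It was read at 1167, 2134 and 838 CPM in the WT lesions and at 465, 428 and 2047 CPM in the KO lesions. WT replicate 2 and KO replicate 3 were the high lesions, and the groups overlapped. The means were 1380 ± 673 CPM in WT and 980 ± 924 CPM in KO (SD, n = 3 each), and the log2 fold change was -0.49 (SE 0.72, 95% interval -2.26 to 1.27, edgeR p = 0.519, adjusted p = 0.751, exact permutation p = 0.5).

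Thrombospondin 1 (Thbs1, chromosome 2:118111876-118127133, plus strand) is a large adhesive glycoprotein that can activate latent TGF-beta and that binds CD36 and CD47. Its levels were 1344, 4050 and 1135 CPM in the WT lesions and 252, 181 and 1373 CPM in the KO lesions. WT replicate 2 stood far above the other lesions, and KO replicate 3 was close to WT replicate 1. Thbs1 had the most negative fold change of the 10, -1.85 on the log2 scale (SE 0.95, interval -4.17 to 0.46, edgeR p = 0.0974, adjusted p = 0.384, exact permutation p = 0.3), with means of 2176 ± 1626 CPM in WT and 602 ± 669 CPM in KO. It depended on a lesion of either group: without WT replicate 2 the log2 fold change was -1.04, and without KO replicate 3 it was -3.33. WT replicate 2 was also the lesion with the most neutrophil marker transcripts, and their part in this level was not tested.

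Periostin (Postn, chromosome 3:54361109-54391037, plus strand) binds collagen and helps to bring the enzymes that cross-link it. Its levels were 284, 278 and 214 CPM in WT lesions and 54.8, 100 and 409 CPM in KO lesions. KO replicate 3 was thus the highest of all 6 lesions and KO replicate 1 the lowest, the one gene of the 10 for which KO replicate 1 was the lowest. The means of 259 ± 38.7 CPM and 188 ± 193 CPM gave a log2 fold change of -0.46 (SE 0.73, interval -2.24 to 1.31, edgeR p = 0.547, adjusted p = 0.768, exact permutation p = 0.6).

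Tenascin C (Tnc, chromosome 4:63959785-64047015, minus strand) is a large hexameric glycoprotein made in wounds and in remodelling tissue. It read 100, 77.4 and 46.8 CPM in WT lesions and 31.1, 22.1 and 217 CPM in KO lesions. The KO lesions stood further apart in Tnc than in any other of the 10 genes, with KO replicate 3 at 8.16 times the mean of KO replicates 1 and 2. Tnc was the only one of the 10 with a positive log2 fold change with all 6 lesions, 0.26 (SE 0.90, interval -1.93 to 2.46, edgeR p = 0.778, adjusted p = 0.901, exact permutation p = 1), from means of 74.8 ± 26.9 CPM in WT and 89.9 ± 110 CPM in KO, and without KO replicate 3 the value was -1.49.

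Osteopontin (Spp1, chromosome 5:104435118-104441050, plus strand) is an integrin- and CD44-binding phosphoprotein that macrophages and epithelium make as well as stromal cells. Its levels were 767, 868 and 1303 CPM in WT lesions and 519, 358 and 1272 CPM in KO lesions. WT replicate 3 and KO replicate 3 were the high lesions, close to each other. The log2 fold change was -0.45 (SE 0.51, interval -1.71 to 0.80, edgeR p = 0.413, adjusted p = 0.677, exact permutation p = 0.4), from 979 ± 285 CPM and 716 ± 488 CPM.

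SPARC (Sparc, chromosome 11:55394500-55423183, minus strand), or osteonectin, binds collagen and assists its secretion and fibril assembly. The WT lesions were nearly identical at 2568, 2564 and 2594 CPM, and the KO lesions read 1458, 1037 and 3292 CPM. The WT SD was 16.2 CPM about a mean of 2575 CPM, while the KO SD was 1199 CPM about a mean of 1929 CPM. No KO lesion lay within the WT range, 2 being below it and 1 above. The log2 fold change was -0.42 (SE 0.45, interval -1.51 to 0.68, edgeR p = 0.389, adjusted p = 0.661, exact permutation p = 0.4).

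Lysyl oxidase (Lox, chromosome 18:52516067-52529867, minus strand) is the classic collagen and elastin cross-linking enzyme. It read 426, 360 and 390 CPM in WT lesions and 224, 159 and 528 CPM in KO lesions, with the same arrangement as Sparc. Its log2 fold change was -0.37 (SE 0.45, interval -1.47 to 0.73, edgeR p = 0.442, adjusted p = 0.697, exact permutation p = 0.5), from 392 ± 32.98 CPM in WT and 303.5 ± 197 CPM in KO.

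Lysyl oxidase-like 2 (Loxl2, chromosome 14:69609068-69695834, plus strand) cross-links collagen IV of basement membranes and fibrillar collagen. It read 216, 119 and 173 CPM in WT lesions and 103, 67.4 and 255 CPM in KO lesions. WT replicate 2 was its lowest WT lesion, although that lesion was the highest for Fn1 and Thbs1. The means were 169 ± 48.7 CPM and 142 ± 99.9 CPM, and the log2 fold change of -0.25 (SE 0.52, interval -1.53 to 1.02, edgeR p = 0.645, adjusted p = 0.828, exact permutation p = 0.7) was the smallest of the 9 negative ones and became 0.09 without KO replicate 2.

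Decorin (Dcn, chromosome 10:97479609-97518143) and lumican (Lum, chromosome 10:97565128-97572703) are neighbouring genes on the plus strand, and both proteins coat collagen fibrils. Dcn, which also binds TGF-beta, read 2161, 2043 and 1729 CPM in WT lesions and 1113, 1075 and 2202 CPM in KO lesions. Lum read 629, 458 and 472 CPM in WT lesions and 248, 228 and 673 CPM in KO lesions. In both genes KO replicates 1 and 2 were close to each other and well below the WT lesions, and KO replicate 3 was just above the highest of them. Dcn had a log2 fold change of -0.43 (SE 0.34, interval -1.26 to 0.40, edgeR p = 0.248, adjusted p = 0.543, exact permutation p = 0.4), from 1978 ± 223 CPM and 1464 ± 640 CPM. That of Lum was -0.44 (SE 0.46, interval -1.57 to 0.69, edgeR p = 0.377, adjusted p = 0.651, exact permutation p = 0.4), from 519.5 ± 94.95 CPM and 383 ± 252 CPM.

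The permutation tests above were two-sided tests of the difference of mean CPM, which cannot go below p = 0.1 here. The intervals were wide: a log2 fold change of -1 lay inside the interval of all 10 genes, and one of 1 inside that of Fn1, Postn, Tnc and Loxl2. Genes annotated across 6 of the 10 (Fn1, Tnc, Spp1, Lox, Loxl2 and Thbs1) read at most 0.517 CPM in any lesion, far under the lowest level of the gene they overlap.

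The outcome turned on KO replicate 3. Without KO replicate 3, all 10 genes had an unadjusted p under 0.05 and a lower level in KO (edgeR p from 0.00327 to 0.0323), where 12.4% of all genes did, and 8 of the 10 passed both limits, where 8.66% of all genes did. The log2 fold changes were then -3.33 for Thbs1, -1.74 for Postn, -1.63 for Fn1, -1.49 for Tnc, -1.16 for Spp1, -1.13 for Lum, -1.04 for Sparc and -1.03 for Lox. Loxl2 at -0.99 and Dcn at -0.85 missed the fold limit. None of the 10 had an adjusted p under 0.05 even so (the lowest was 0.121), nor did any gene of the 19048 tested in that fit. Without any one of the other 5 lesions, 0 of the 10 genes passed, where 2.9% to 6.24% of all genes passed as lower, and the median log2 fold change of the 10 lay between -0.47 and -0.13.

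**Figure D2:**
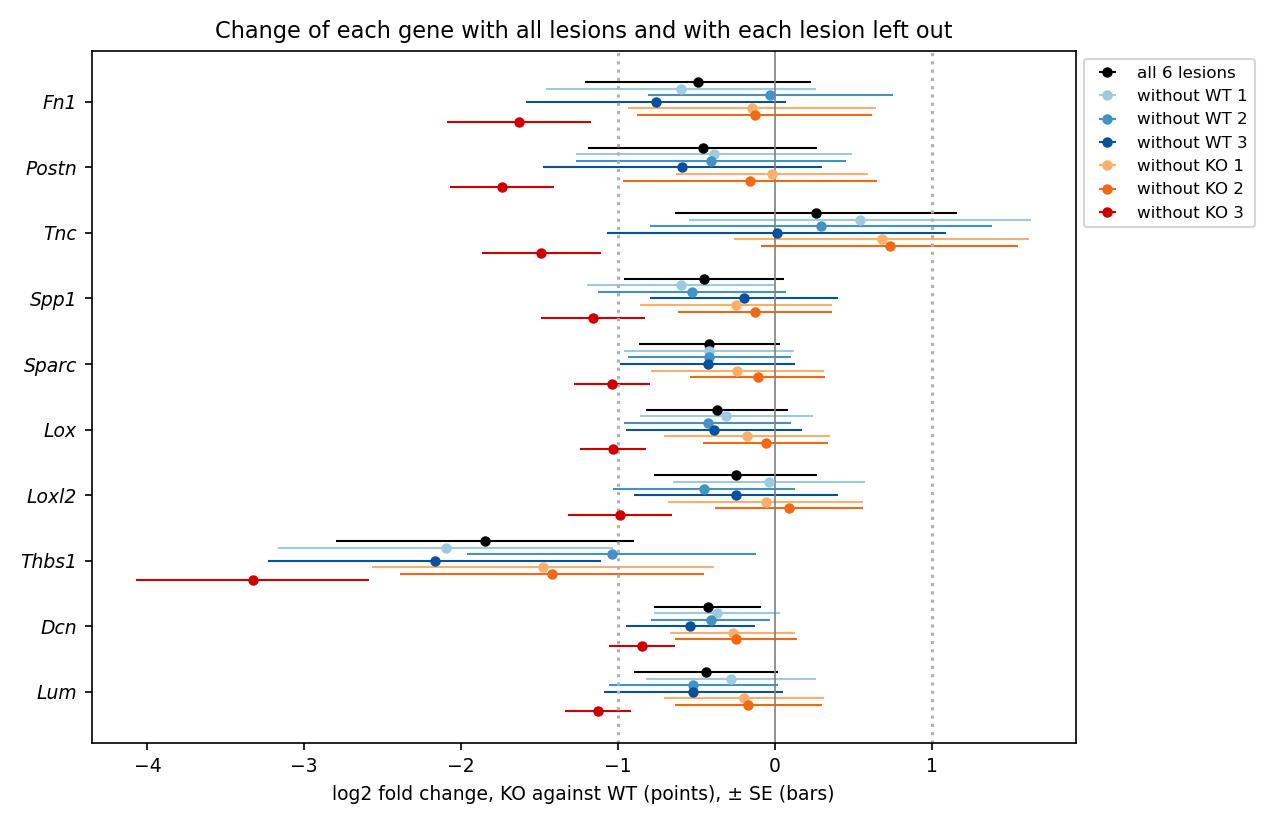
Log2 fold change of each of the 10 genes, KO against WT (points) with its standard error (bars), with all 6 lesions (black) and with each lesion left out (colours); dotted lines mark the fold limits of -1 and 1. The red points, without KO replicate 3, lie to the left of all the others for each gene, from -3.33 (Thbs1) to -0.85 (Dcn).

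As fold differences, the WT mean was 10.05 times the mean of KO replicates 1 and 2 for Thbs1, 3.34 times for Postn, 3.09 times for Fn1 and 2.82 times for Tnc. It was 2.23 times for Spp1, 2.19 for Lum, 2.06 for Sparc, 2.05 for Lox, 1.99 for Loxl2 and 1.81 for Dcn. The 5 greatest differences were those of fibronectin and of the matricellular proteins other than Sparc, although Spp1 and Lum were close, and this order was not tested. KO replicate 3 held 1.11 (Dcn) to 2.90 (Tnc) times the WT mean for 9 genes and 0.631 times for Thbs1.

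Levels can be compared between genes only per length of exon. In WT lesions Sparc stood first at 680 ± 4.29 CPM per kilobase (SD, n = 3), followed by Spp1 at 594 ± 173, Thbs1 at 358 ± 268, Dcn at 339 ± 38.3, Lum at 212 ± 38.8 and Fn1 at 118 ± 57.6. Lower down came Lox at 82.1 ± 6.90, Loxl2 at 31.3 ± 9.01, Postn at 29.8 ± 4.45 and Tnc at 9.63 ± 3.46 CPM per kilobase. The WT ranges of Sparc and Spp1, Spp1 and Thbs1, Thbs1 and Dcn, Fn1 and Lox, and Loxl2 and Postn overlapped, so these neighbours in the order were not separated beyond their spread. Between Dcn and Lum, Lum and Fn1, Lox and Loxl2, and Postn and Tnc the WT ranges did not overlap.

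Ratios of counts between pairs of the genes within a lesion, which do not depend on scaling, varied less than the levels for some pairs and more for others. The ratio of Sparc to Lox was 6.02, 7.11 and 6.64 in WT lesions and 6.52, 6.51 and 6.24 in KO lesions, a span of 1.18-fold and the narrowest of the 45 pairs. Lum to Lox followed with a span of 1.33-fold. The matrix protein and the cross-linker thus kept nearly one proportion in lesions that differed up to 3.18-fold in Sparc and 3.31-fold in Lox. At the other end, the ratio of Thbs1 to Loxl2 was 6.23, 34.1 and 6.58 in WT lesions and 2.46, 2.69 and 5.38 in KO lesions, a span of 13.9-fold. Over all 45 pairs the median span was 2.92-fold, and 12 pairs stayed within 2-fold.

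Fibroblast markers were low in the same 2 KO lesions. The 5 markers Col1a1, Col3a1, Pdgfra, Pdgfrb and Dpt summed to 7123, 9407 and 7589 CPM in WT lesions and to 3469, 2134 and 8970 CPM in KO lesions. None of the 5 was at 0 in any lesion, and 0 of the 5 passed the limits, where 5.85% of all genes passed as lower and 3.1% as higher. KO replicates 1 and 2 were below every WT lesion and KO replicate 3 was not in 4 of the 5, an arrangement that 13.7% of all genes had. Per unit of this sum, the 10 genes together came to 1.36, 1.38 and 1.17 in WT lesions and 1.29, 1.71 and 1.37 in KO lesions, which overlapped (exact two-sided permutation p = 0.5) and spanned 1.46-fold. Per unit, the KO mean lay above the WT mean for the 10 genes together (1.456 against 1.302). It also did so for each single gene except Thbs1, whose KO mean was 0.1035 against 0.2563 in WT. Sparc per unit of fibroblast markers was 0.361, 0.273 and 0.342 in WT lesions and 0.420, 0.486 and 0.367 in KO lesions, higher in every KO lesion (exact permutation p = 0.1, the smallest possible, unadjusted for the 10 genes examined), while the groups overlapped for the other 9. The share of all genes that separate in this way per unit of the markers was not computed. In CPM, 8.74% of all genes had every KO lesion below every WT lesion and 10.7% had every one above. Thbs1 per unit was 0.189, 0.431 and 0.150 in WT lesions and 0.0726, 0.0849 and 0.153 in KO lesions. The marker sum is itself made mostly of 2 matrix genes, Col1a1 and Col3a1, so it is no separate count of cells, and the part of fibroblast content in the levels of the 10 genes was not tested.

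Markers of other cell types also moved with KO replicate 3. Endothelial markers summed to 398 to 470 CPM in WT lesions, 266 and 190 CPM in KO replicates 1 and 2, and 510 CPM in KO replicate 3. Macrophage markers summed to 711 to 1796 CPM in WT lesions and to 476, 364 and 912 CPM in the KO lesions, and adipocyte markers to 729 to 2269 CPM in WT lesions and to 391, 718 and 3280 CPM in KO lesions. Endometrial epithelium markers went the other way: 1036 to 1719 CPM in WT lesions, 2245 and 2109 CPM in KO replicates 1 and 2, and 1163 CPM in KO replicate 3. In each of these 4 lists, 0 of the 5 markers passed the limits, where 5.85% of all genes passed as lower and 3.1% as higher. Only Foxa2 was at 0 in any lesion (KO replicate 3). The part of these cell types in the levels of the 10 genes was not tested.

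**Figure D3:**
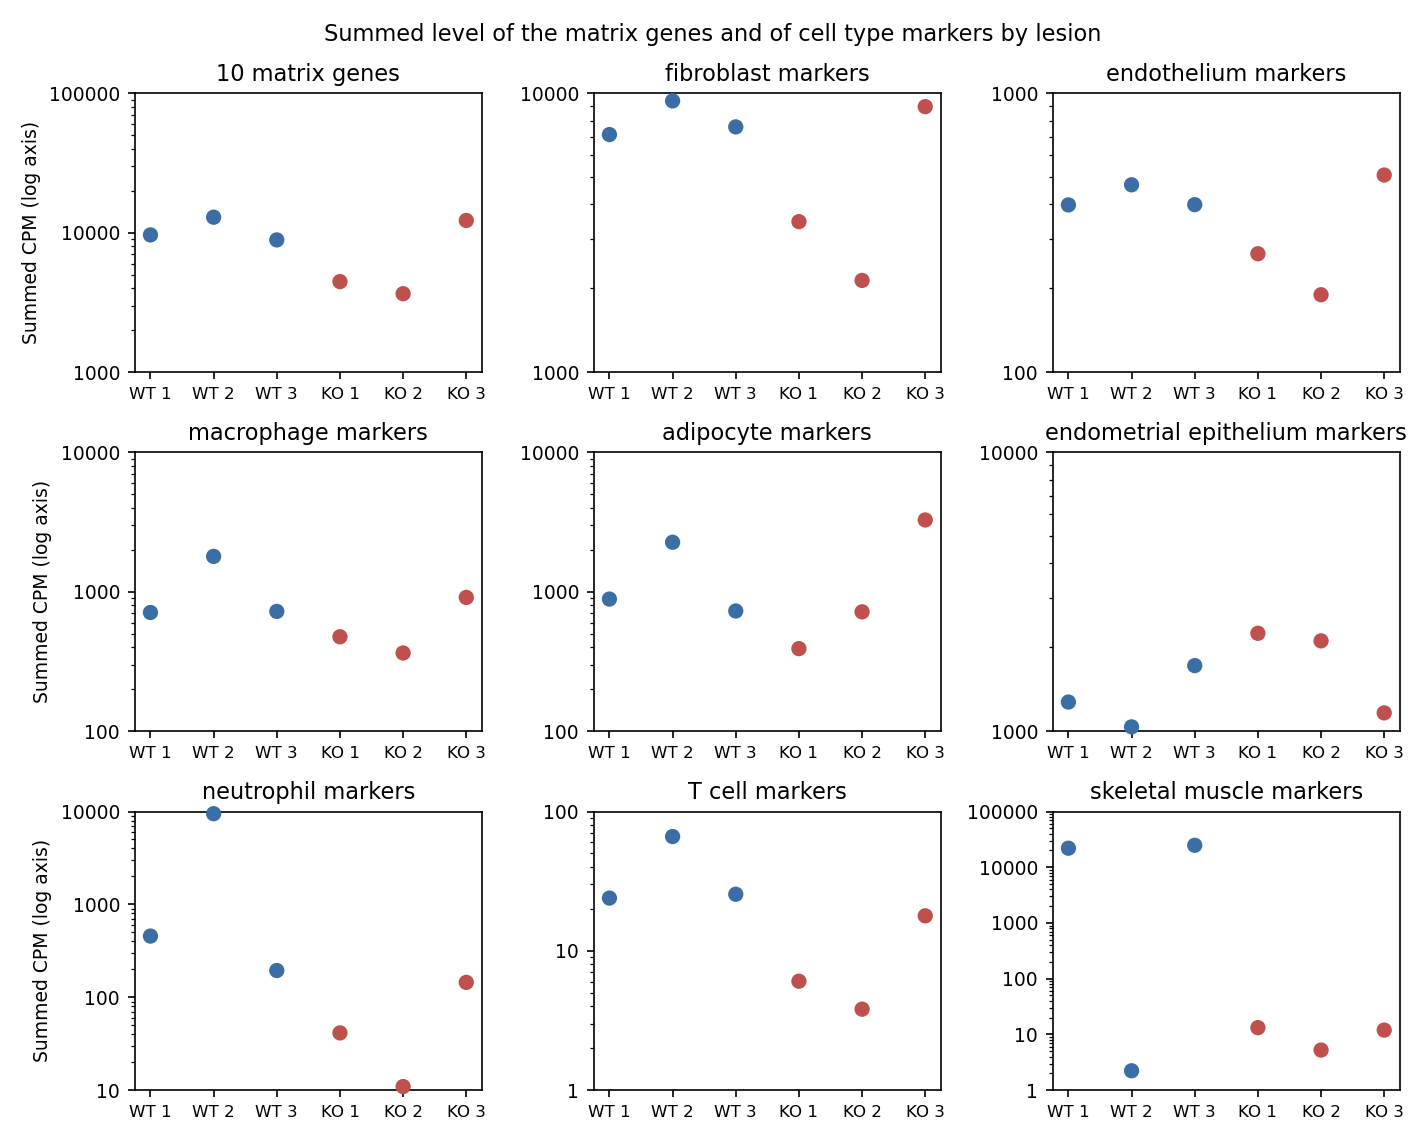
Summed level (CPM, log axis) of the 10 matrix genes and of 8 lists of 5 cell type markers in each WT (blue) and KO (red) lesion. The 10 genes, fibroblast, endothelium and macrophage markers are lowest in KO replicates 1 and 2, epithelium markers are highest in them, and skeletal muscle markers are high in WT replicates 1 and 3 alone.

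Of the 13 marker lists, 6 had a member past the limits, which 5.85% of all genes passed as lower in KO lesions and 3.1% as higher. The T cell list had 5 of 5 lower in KO, skeletal muscle 3 of 3 tested lower, neutrophil 3 of 5 lower and pancreatic acinar 1 of 1 tested lower. The muscle and acinar calls rest on the WT lesions named above that held those transcripts: Cela1, the acinar marker tested, read 8.84, 13.5 and 1032 CPM in WT lesions and 6.83 to 15.9 CPM in KO lesions. The endometrial stroma list had 2 of 5 higher (Hoxa11 and Hand2). Its other markers did not share that direction throughout, since Vim and Pdgfra, named after their values were seen, had log2 fold changes of -0.52 and -0.86 and the arrangement of the 10 genes, and the list summed to 1235, 1388 and 1138 CPM in WT lesions and to 777, 695 and 1365 CPM in KO lesions. The myofibroblast and smooth muscle list had 1 of 5 higher (Cnn1). Mesothelium and intestinal epithelium lists had 0 past the limits, as did the 5 lists above. The myofibroblast and smooth muscle sums did not follow the 10 genes. They came to 4734, 991 and 2848 CPM in WT lesions and to 3498, 2012 and 2906 CPM in KO lesions. However, the WT sums were carried by Des, which read 2675, 106 and 1357 CPM in WT lesions and was high in the lesions with skeletal muscle transcripts. The other 4 markers had positive log2 fold changes (Acta2 0.73, Myh11 0.96, Cnn1 1.26 and Tagln 0.58, the last 2 named after their values were seen). Myh11 and Cnn1 lay above every WT lesion in every KO lesion, as 10.7% of all genes did. Leaving out WT replicates 1 and 3 together leaves 1 WT lesion, so that the spread comes from the KO lesions alone. The log2 fold changes of the 10 genes were then -2.75 to 0.25 with SEs of 0.55 to 1.56, and this fit does not show whether muscle content bears on them.

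Around the 10 genes, 11 lists of relatives, receptors and profibrotic inputs held 95 genes, of which 91 were tested. With all 6 lesions 3 of the 91 were lower and 4 higher past the limits (5.85% and 3.1% of all genes), 0 had an adjusted p under 0.05 by edgeR (the lowest was 0.321) and 4 had by DESeq2, which gave one to 6.05% of all genes. Of the 91, 69 had a negative log2 fold change, their median was -0.33, and 43 (47.3%) had KO replicates 1 and 2 below every WT lesion and KO replicate 3 not, the arrangement of 13.7% of all genes. Without KO replicate 3, 25 of the 91 were lower past the limits (27.5%, beside 8.66% of all genes) and 4 higher (5.36% of all genes), and without KO replicate 1 or KO replicate 2 the lower ones numbered 0 and 1.

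The genes past the limits came from 4 families. Thbs3, a pentameric thrombospondin of cartilage and other tissues, fell in KO lesions: the WT lesions read 45.5, 45.04 and 37.2 CPM and the KO lesions 13.1, 11.6 and 29.0 CPM, for a log2 fold change of -1.25 (SE 0.38, edgeR adjusted p = 0.324). Tgfbi, a TGF-beta-induced relative of periostin, fell by 1.47 on the log2 scale, from 159, 334 and 124 CPM to 56.6, 57.5 and 109 CPM. Fmod, or fibromodulin, a collagen-binding proteoglycan like lumican, fell by 1.11, from 23.4, 18.4 and 22.3 CPM to 7.19, 6.08 and 16.3 CPM. In all 3 the KO lesions lay below every WT lesion, with KO replicate 3 the nearest to them. Single lesions decided these calls: of the 6 fits that left 1 lesion out, Thbs3 did not pass without KO replicate 1 (log2 fold change -1.06), Tgfbi without KO replicate 1 (-1.30), KO replicate 2 (-1.31) or WT replicate 2 (-0.93), and Fmod without KO replicate 1 (-0.92), KO replicate 2 (-0.86), WT replicate 1 (-1.04) or WT replicate 3 (-1.09).

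The 4 that rose were low in level apart from Smoc1, a SPARC-related calcium-binding protein, which read 36.6, 48.6 and 70.7 CPM in WT lesions and 120, 76.8 and 136 CPM in KO lesions (log2 fold change 1.09, edgeR adjusted p = 0.321). Smoc1 missed the fold limit without KO replicate 3 (0.92) and without WT replicate 1 (0.89). Spock3, a SPARC-related proteoglycan core protein, read 0.720 to 2.86 CPM in WT and 4.04 to 4.49 CPM in KO lesions (log2 fold change 1.32), and of those 6 fits it passed only in the one without WT replicate 3 (1.87). Optc and Chad, the small leucine-rich proteins opticin and chondroadherin, read 1.30 to 1.97 and 0.427 to 1.03 CPM in WT lesions and 3.38 to 7.68 and 2.42 to 21.1 CPM in KO lesions. Both passed with each lesion left out in turn, at log2 fold changes of 1.37 to 1.99 for Optc and 2.29 to 4.15 for Chad. The small leucine-rich proteoglycans thus held genes in both directions, Fmod lower and Optc and Chad higher.

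**Figure D4:**
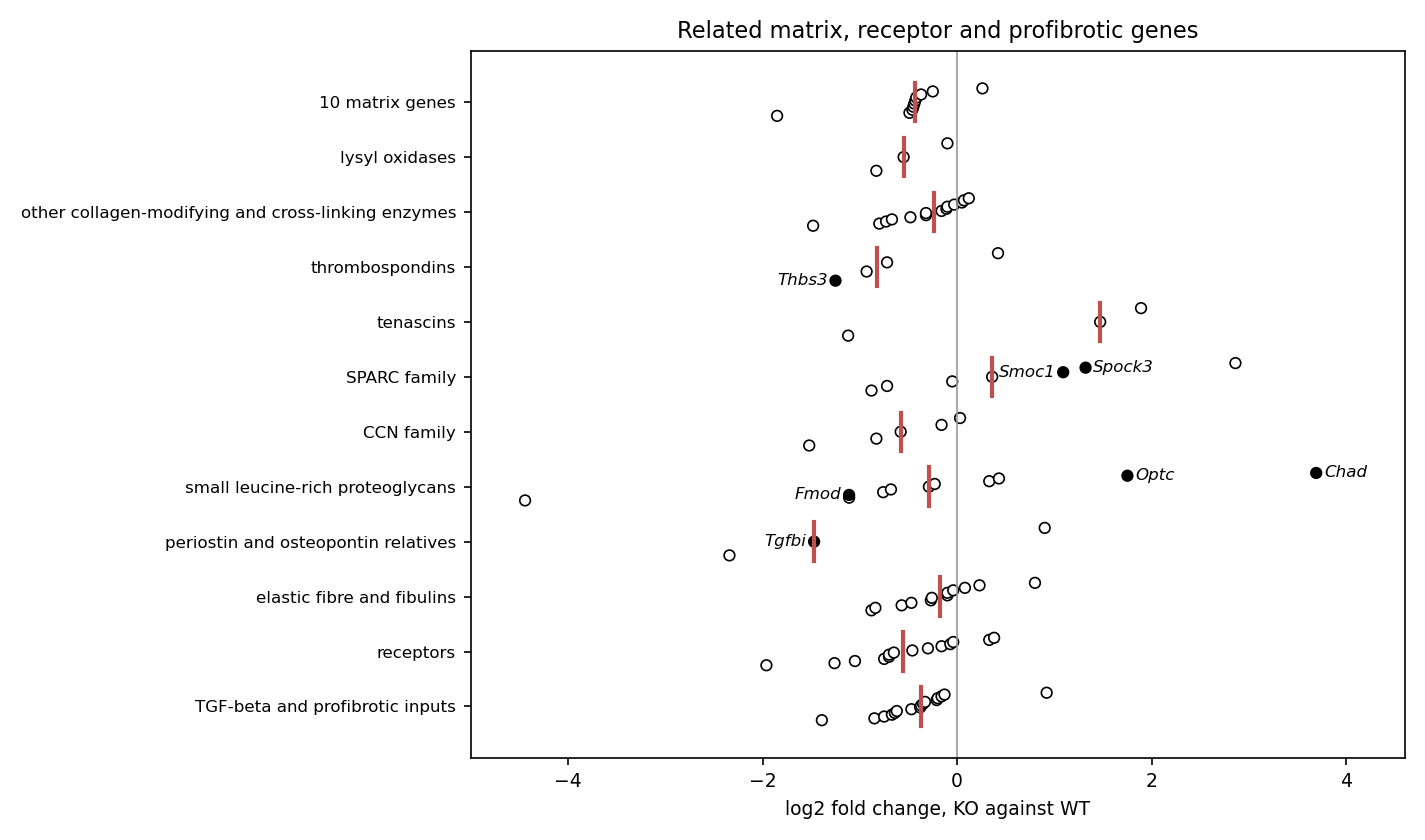
Log2 fold change, KO against WT with all 6 lesions, of the 10 genes and of 11 lists of related genes (1 point per gene); filled points passed the limits of unadjusted p under 0.05 and log2 fold change beyond 1, and the red bar is the list's median. Thbs3, Tgfbi and Fmod are filled on the left and Smoc1, Spock3, Optc and Chad on the right; the 10 genes have none filled and a median of -0.44.

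By list, the 3 other lysyl oxidases (Loxl1, Loxl3 and Loxl4) had 0 past the limits and a median log2 fold change of -0.55, and 14 other collagen-modifying and cross-linking enzymes had 0 and a median of -0.24. Receptors that bind the 10 proteins, among them the integrins, Cd44, Cd36, Cd47 and Sdc4, had 0 of 14 past the limits and a median of -0.56. TGF-beta and profibrotic inputs had 0 of 16 and a median of -0.37, elastic fibre proteins and fibulins 0 of 12 and -0.18, CCN proteins 0 of 5 tested and -0.58, and the other tenascins 0 of 3 and 1.47. The tenascin median rests on Tnr and Tnn, whose means were 0.345 and 0.379 CPM in WT lesions and 0.964 and 1.41 CPM in KO lesions, whereas Tnxb, the abundant one, had a log2 fold change of -1.12, and the 3 summed to 129, 115 and 87.0 CPM in WT lesions and to 20.3, 22.5 and 116 CPM in KO lesions. The sum of those 14 enzymes, most of it Tgm2, came to 4709 to 5252 CPM in WT lesions and to 5587, 3969 and 4982 CPM in KO lesions. Even so, 9 of the 14 genes had the arrangement of the 10, which 13.7% of all genes had. The receptor list summed to 2933 to 3477 CPM in WT lesions and to 2284, 1998 and 3322 CPM in KO lesions, lower in the same 2 KO lesions.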

How the data were processed

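RNA from 3 WT and 3 KO lesions was sequenced from TruSeq Stranded mRNA libraries. The authors deposited raw read counts per gene, the unit used here; the sample files and the series table differed in 0 values. The submitters' processing notes name Trimmomatic, featureCounts, DESeq2 and GRCm39, while the study's methods name Galaxy and GRCm38. The aligner, annotation release and strand setting are not given in the sources used here. Gene IDs without version were matched to GENCODE M21 (GRCm38) for symbols, exon lengths and coordinates (51948 of 56884, but only 35 with version), so the models counted can differ from those printed. Columns of samples left unused numbered 0.

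Counts were filtered by filterByExpr, scaled by TMM and tested with edgeR 4.0.16 (quasi-likelihood, R 4.3.3) on genotype alone, with Benjamini-Hochberg adjustment over all 18177 genes. The limits, unadjusted p under 0.05 and log2 fold change beyond 1, are the study's. CPM use the TMM-scaled library sizes (45370342 to 57239184 counts before scaling); the SE is the log2 fold change over the root of F, and 95% intervals use the test's degrees of freedom. Scripts were tested on simulated data. P-values measure the spread between these lesions only, and exact permutation of 3 against 3 cannot go below p = 0.1. The 10 genes, the 11 lists of related genes and the 13 marker lists were chosen with earlier results of these data known. All 10 genes and Dnmt3a are named. Related genes are named when past the limits, at a mean of at least 1 CPM and without overlap between groups, at most 8 per list, and the others are given as counts. Alternatives were DESeq2 1.42.0, limma 3.58.1 voom with quality weights, other scalings and filters, the replicate number as a block, and each lesion left out.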

Additional observations from a re-analysis of the deposited data

How the results depend on the processing

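Of 13 alternatives, 10 left 0 of the 10 genes past the limits. DESeq2 gave 1, voom with quality weights 3, and leaving out 1 lesion 0 to 8, the 8 being without KO replicate 3. The weights of voom were lowest for WT replicate 2 (0.304) and KO replicate 3 (0.379) and from 1.40 to 2.12 for the other lesions. The sign of Tnc turned with voom (-1.0), with the replicate block (-0.61) and without KO replicate 3 (-1.49), its values with 1 lesion left out spanning -1.49 to 0.73, and that of Loxl2 without KO replicate 2 (0.09, with a span of -0.99 to 0.09) and without WT replicates 1 and 3 (0.25), an alternative chosen after seeing the data that leaves 1 WT lesion, assumed to vary like the KO lesions. Upper quartile scaling moved the median of all genes to 0.11 and that of the 10 genes to -0.35. Over all genes, 1064 were lower and 564 higher. Lower genes numbered 1652 without a filter, 551 to 1650 with 1 lesion left out, and 1625 without WT replicates 1 and 3. Higher genes numbered 855 with voom and 280 to 1021 with 1 lesion left out. The cause of these moves was not tested.

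The replicate block gave 573 lower and 372 higher genes, 0 of the 10 past the limits and log2 fold changes of the 10 from -2.25 to -0.45. Samples of one number did not deviate together (r of -0.202, -0.152 and 0.0318 across genes). With 3 lesions per group this cannot show whether they shared more than the number, and the labels name nothing more. Depth was high for these genes, whose lowest count was 1111, while 3 lesions per group with widely spread KO values left wide intervals.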

Other observations

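Among the related genes, some chosen here after their values were seen had the arrangement of the 10 genes in a wide form. Fbn1, or fibrillin-1, read 381, 348 and 334 CPM in WT lesions and 111, 84.6 and 398 CPM in KO lesions. Tnxb, or tenascin X, a stabiliser of collagen in loose connective tissue, had a log2 fold change of -1.12 with all lesions and -2.41 without KO replicate 3. Fbln1, or fibulin-1, went the other way at 150, 192 and 81.3 CPM in WT lesions and 315, 257 and 166 CPM in KO lesions, with an edgeR adjusted p of 0.368. None of these 3 passed the limits with all 6 lesions.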
